A study of Homo sapiens with 24 samples.

Results

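The HIF subunits and oxygen-sensing regulators are 8 human genes: the hypoxia-inducible factor subunits HIF1A, EPAS1 and ARNT, the prolyl hydroxylases EGLN1, EGLN2 and EGLN3, the asparaginyl hydroxylase HIF1AN (also called FIH) and the ubiquitin ligase subunit VHL. They were chosen by gene symbol, and their probe sets were taken from a table of 20276 probe sets. Of the 8, 7 had 1 probe set of their own and were tested among 17448 genes. The eighth, EGLN2, was represented only by a probe set also annotated to the readthrough transcript RAB4B-EGLN2, and its signal cannot be assigned to EGLN2 alone.

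The arrays measured SW1222, an established human colorectal cancer line, in 24 samples that fall into 9 groups, all kept at 21% oxygen. A line with inducible DPPA3 and its control line formed megacolonies embedded in Matrigel (3D) and received doxycycline at 5 µg/ml for 5 days, on 3 arrays each. The same 2 lines were grown in 2D and given the same dose for 4 hours, again on 3 arrays each, so culture and length of treatment changed together and cannot be told apart. In 3D without doxycycline, a DPPA3 shRNA line and a control shRNA line had 3 arrays each, and a scrambled guide RNA control and clones C66 and C75, both DPPA3 knockouts, were on 2 arrays each. Each knockout group is a single clone, and the induced line was not analysed here without doxycycline, so a standing difference between lines cannot be told apart from an effect of DPPA3. Whether replicates came from independent cultures is not given in the labels, and the p-values measure the spread between these arrays only. In bulk RNA, fewer cells of a kind and less RNA per cell cannot be told apart.

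HIF is a pair of proteins, an oxygen-regulated alpha subunit (HIF-1 alpha from HIF1A or HIF-2 alpha from EPAS1) and the stable partner ARNT. When oxygen is present, the EGLN enzymes hydroxylate prolines of the alpha subunit, VHL binds the hydroxylated form and the protein is degraded, while HIF1AN hydroxylates an asparagine and blocks coactivator binding. Much of this control acts on protein and is not seen in RNA, and EGLN3 and EGLN1 are themselves known HIF target genes.

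The promoter sequences of the subunits and hydroxylases on which the results turn are shown for orientation, as the 250 bases before the RefSeq start site (GRCh38.p14), 5′ to 3′ on the gene's strand. Capitals mark ACGTG or GCGTG on either strand, the core letters of the HIF binding motif. Read on both strands, ACGTG overlaps itself in CACGTG.
HIF1A, chr14:61695263-61695512, plus strand: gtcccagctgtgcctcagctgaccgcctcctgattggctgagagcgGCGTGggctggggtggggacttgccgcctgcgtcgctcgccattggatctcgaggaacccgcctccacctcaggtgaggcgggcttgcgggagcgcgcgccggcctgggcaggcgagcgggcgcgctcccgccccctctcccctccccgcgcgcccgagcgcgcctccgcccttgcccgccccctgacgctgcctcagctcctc
EPAS1, chr2:46297157-46297406, plus strand: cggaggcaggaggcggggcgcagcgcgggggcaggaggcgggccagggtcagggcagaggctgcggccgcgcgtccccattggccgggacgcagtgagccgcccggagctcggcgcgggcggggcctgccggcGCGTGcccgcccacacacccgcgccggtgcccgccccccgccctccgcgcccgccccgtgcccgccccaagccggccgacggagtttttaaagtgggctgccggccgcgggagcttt
EGLN1, chr1:231422288-231422537, minus strand: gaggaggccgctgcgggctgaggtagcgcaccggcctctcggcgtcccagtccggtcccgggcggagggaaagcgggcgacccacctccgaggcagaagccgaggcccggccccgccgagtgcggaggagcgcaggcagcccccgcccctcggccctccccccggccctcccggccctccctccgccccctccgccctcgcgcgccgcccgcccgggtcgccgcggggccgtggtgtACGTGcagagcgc
EGLN3, chr14:33951075-33951324, minus strand: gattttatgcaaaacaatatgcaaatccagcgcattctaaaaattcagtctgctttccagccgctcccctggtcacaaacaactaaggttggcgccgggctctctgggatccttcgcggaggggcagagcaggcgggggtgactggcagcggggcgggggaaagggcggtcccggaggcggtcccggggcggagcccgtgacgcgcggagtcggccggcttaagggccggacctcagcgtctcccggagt
The HIF1A and EPAS1 windows each held 1 GCGTG, the EGLN1 window held 1 ACGTG that began 13 bases before the start site, and the EGLN3 window held neither. Of 35116 such windows in the RefSeq table, 43.2% held at least 1 of the 2 motifs. The table holds another HIF1A start site, whose window (chr14:61697462-61697711) had neither motif and 3 CG dinucleotides. The windows shown had 29 CG dinucleotides in HIF1A, 38 in EPAS1, 36 in EGLN1 and 23 in EGLN3, against a median of 11 over all windows. VHL was not in the promoter table used here, and a match or its absence is a description of letters only.

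The signals are RMA values on the log2 scale, so a difference of 1 is a doubling. A probe set's signal also depends on its probes, so levels of different genes are given without ranking them. Array medians over probe sets lay between 4.01 and 4.12, and precision is set by how many arrays a group has. As means over 24 arrays, the 10 epithelial markers read from 6.16 (CDX1) to 11.1 (LGALS4). The 4 measured endothelial markers read from 2.52 (KDR) to 2.85 (VWF), the 8 stromal markers from 2.16 (DCN) to 4.24 (COL1A1), and the 4 measured leukocyte markers from 2.14 (PTPRC) to 5.00 (CD68). The induced line carried more DPPA3 RNA than its control in 3D (log2 fold change 1.502, SE 0.31, limma adjusted p = 0.00251) and in 2D (1.84, adjusted p = 0.000475). DPPA3 lay between 2.55 and 3.47 in the 18 other arrays, and its log2 fold change was -0.04 with the shRNA, -0.16 in C66 and 0.19 in C75, none past the threshold, so the arrays do not check the knockdown and knockout labels.

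HIF1A, the gene named in the study's title, had mean RNA signals between 6.48 and 6.81 in the 9 groups. In 3D it read 6.27, 6.67 and 6.51 with DPPA3 induced and 6.35, 6.61 and 6.86 in the control line. In 2D it read 6.80, 6.46 and 6.83 with induction and 6.77, 6.90 and 6.75 in the control. These groups overlapped in both cultures. The shRNA arrays read 6.604, 6.61 and 6.50 against 6.51, 6.71 and 6.48. In C66 HIF1A read 6.65 and 6.38. In C75 it read 6.93 and 6.44, and with the scrambled guide 6.67 and 6.59. The replicates of C75 thus spanned more than the means of all 9 groups, which ran from 6.48 to 6.81. Only 30.7% of the variance of HIF1A over the 24 arrays lay between groups, where the median gene had 51.4%. This share is not corrected for fitting 9 group means to 24 arrays, so part or all of it could arise without any group difference.

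No comparison passed for HIF1A by limma, where a gene passes (is called) if its p, adjusted by Benjamini-Hochberg across every gene tested, is under 0.05. With induction its log2 fold change was -0.12 in 3D (SE 0.14, 95% interval -0.41 to 0.17, adjusted p = 0.788) and -0.11 in 2D (interval -0.40 to 0.18, adjusted p = 0.822). It was 0.01 with the shRNA (interval -0.28 to 0.29), -0.12 in C66 (interval -0.47 to 0.23) and 0.05 in C75 (interval -0.30 to 0.40). Over the 10 comparisons of the design the intervals for HIF1A reached from -0.52 to 0.40, and the smallest unadjusted p was 0.142. Ordered by mean, the 9 groups ran from the 2D control to the induced line in 3D, and no neighbours in that order were separated without overlap of their arrays. Groups further apart could be separate. The lowest 2D control array (6.75) lay above the highest of the induced line in 3D (6.67), the scrambled guide (6.67) and C66 (6.65). It also lay above the highest with the control shRNA (6.71) and the DPPA3 shRNA (6.61). None of these pairs was a comparison of the design, and they were not tested.

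**Figure D1:**
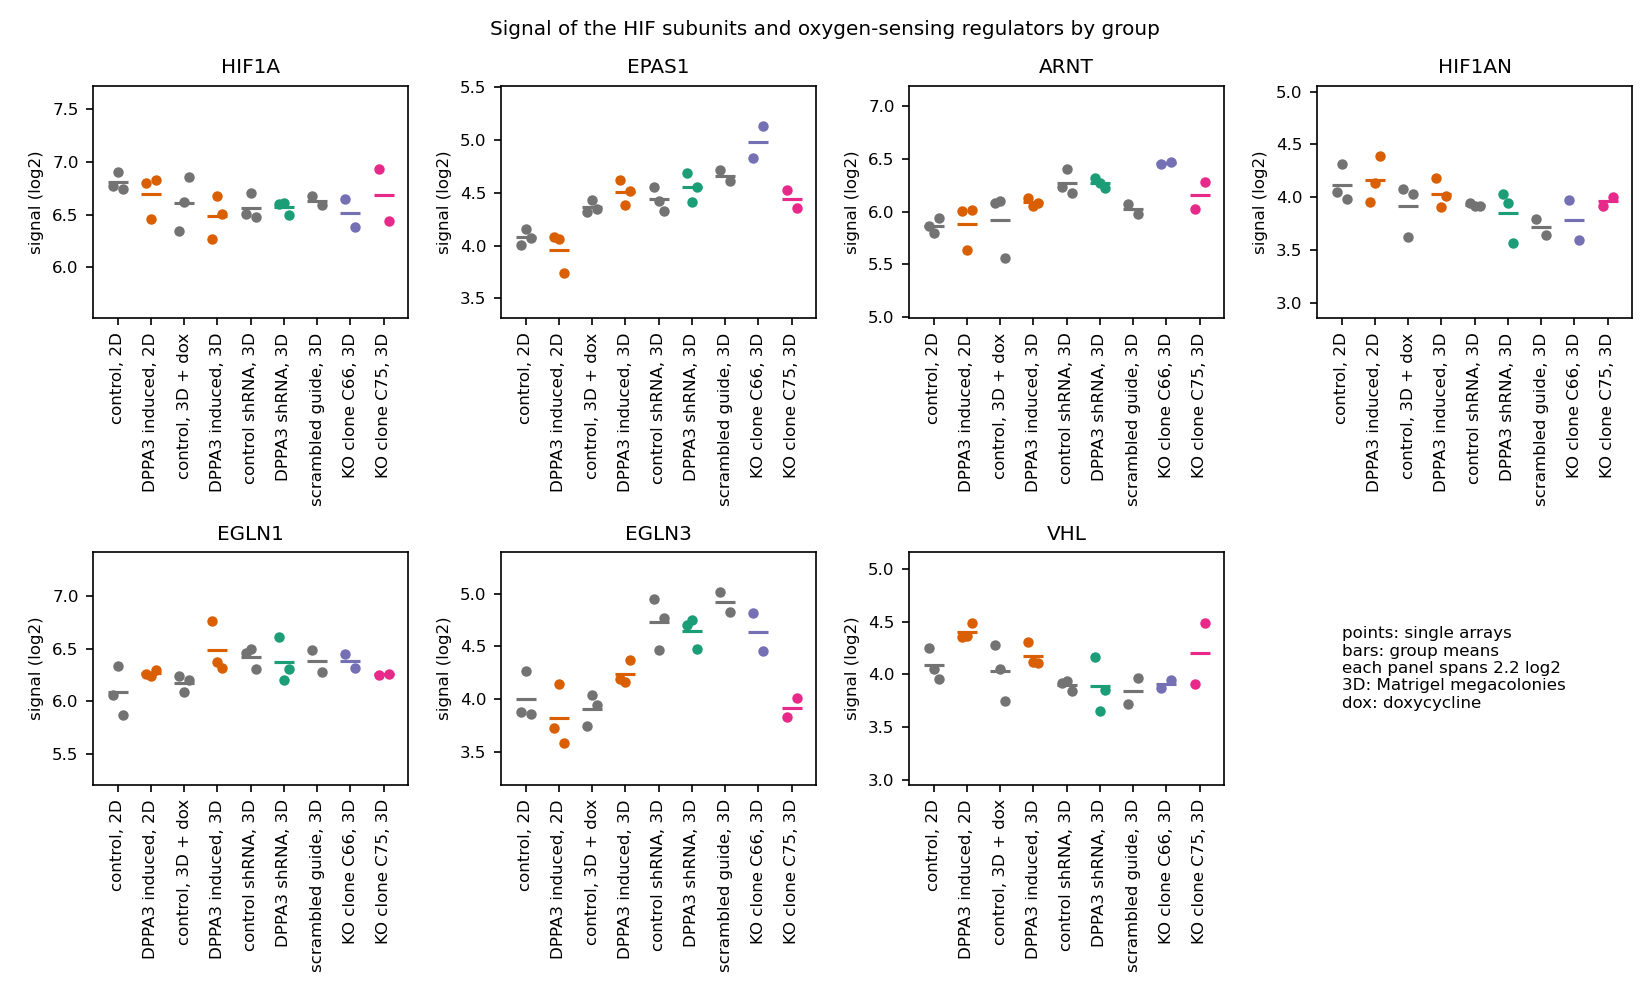
Signal (log2) of the 7 genes with a probe set of their own in the 9 groups; points are single arrays, bars are group means and each panel spans the same 2.2 log2 units. HIF1A group means lie between 6.48 and 6.81, while EPAS1 is lowest in the 2D groups and EGLN3 is lowest in the induction experiment and in C75.

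EPAS1, which encodes HIF-2 alpha, was higher in 3D than in 2D in the induced line. In 2D it read 4.08, 4.06 and 3.74 with induction and 4.00, 4.16 and 4.07 in the control line. In 3D it read 4.62, 4.39 and 4.52 with induction and 4.32, 4.43 and 4.34 in the control line. All 6 arrays of 3D cultures thus lay above all 6 of 2D cultures. In the induced line the log2 fold change of 3D over 2D was 0.55 (SE 0.11, adjusted p = 0.00110). EPAS1 was the only 1 of the 7 members called there, where 14.9% of all genes were called. The call held in all 8 other settings and without each of the 6 arrays (adjusted p up to 0.0140). In the control line the same comparison gave 0.29 (SE 0.11, adjusted p = 0.118), with higher values on 3 of 3 arrays. The difference between the 2 lines was 0.26 (adjusted p = 0.676), so the lines were not shown to differ.

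With induction the EPAS1 arrays overlapped with those of the control in both cultures, and neither comparison passed. The log2 fold change was 0.14 in 3D (interval -0.09 to 0.37, adjusted p = 0.631) and -0.12 in 2D (interval -0.35 to 0.11, adjusted p = 0.735). With the shRNA it read 4.69, 4.41 and 4.56 against 4.56, 4.43 and 4.33, which is 0.12 on the log2 scale (interval -0.11 to 0.35). No difference in EPAS1 was detectable at this number of arrays in these comparisons.

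The knockout clones lay on opposite sides of their shared control in EPAS1, and differed from each other. The signal was 4.83 and 5.13 in C66, 4.72 and 4.61 with the scrambled guide, and 4.53 and 4.35 in C75. The arrays of the 3 groups did not overlap. Neither clone passed against the control, with 0.32 in C66 (SE 0.14, adjusted p = 0.407) and -0.22 in C75 (SE 0.14, adjusted p = 0.771). C66 over C75 gave 0.54 (SE 0.14, adjusted p = 0.0242), which passed. The call ended without C66 replicate 2 (0.39, adjusted p = 0.426), without C75 replicate 1 (0.63, adjusted p = 0.0602) or replicate 2 (0.46, adjusted p = 0.298), and with the variance taken from the 4 arrays of the clones alone (adjusted p = 0.0845). C66 stood highest of the 9 groups in EPAS1 and did not overlap with the next group, the scrambled guide. The groups from the scrambled guide down to the control line in 3D each overlapped with the next, and the 2D groups lay below them.

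ARNT, the stable partner of both alpha subunits, was higher in C66 than in its control by a margin that missed the threshold. It read 6.45 and 6.47 in C66 and 6.07 and 5.98 with the scrambled guide. On the log2 scale the change was 0.43 (SE 0.15, unadjusted p = 0.00881, adjusted p = 0.234 by limma). C75 read 6.03 and 6.28 and overlapped with the control (0.13, adjusted p = 0.960). With induction ARNT changed by 0.17 in 3D (interval -0.08 to 0.43) and 0.02 in 2D (interval -0.24 to 0.28), and with the shRNA by 0.00 (interval -0.26 to 0.26). Over all 24 arrays ARNT lay between 5.56 and 6.47, and the lowest value was control replicate 3 of the induction experiment in 3D.

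EGLN3, the prolyl hydroxylase best known as an induced HIF target, showed the largest change of any member, a fall in clone C75. It read 3.83 and 4.01 in C75 against 5.02 and 4.83 with the scrambled guide, with no overlap. On the log2 scale the change was -1.004 (SE 0.18, adjusted p = 0.00397). EGLN3 was the 1 of 7 members called in C75, where 0.619% of all genes were called. The call ended without scrambled guide replicate 1 (-0.91, adjusted p = 0.1195) and without C75 replicate 1 (-0.91, adjusted p = 0.0898), and held in the 8 settings that kept every array. C66 read 4.81 and 4.45, that is -0.29 on the log2 scale (SE 0.18, adjusted p = 0.719), and none of the 7 members was called in C66 (2 of 7 at an unadjusted p under 0.05 by limma), where 1.43% of all genes were called.

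The clones differed from each other in EGLN3 by 0.72 (C66 over C75, SE 0.18, adjusted p = 0.0276). With EPAS1, 2 of 7 members were called in that comparison, both higher, where 2.90% of all genes were called and 1.98% were called higher. For EGLN3 the call ended without C66 replicate 1 (0.54, adjusted p = 0.413), without C75 replicate 1 (0.62, adjusted p = 0.289) or replicate 2 (0.81, adjusted p = 0.0818). The mean of both clones over the control gave -0.65 for EGLN3 (adjusted p = 0.0876). It passed with the variance from those arrays alone (adjusted p = 0.0485) and with array weights (adjusted p = 0.0184). For that mean, none of the 7 members was called (2 of 7 at an unadjusted p under 0.05), where 0.321% of all genes were called. The clones share their control arrays, so their values against it are not independent.

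Genes next to EGLN3 on chromosome 14 were lower in C75 as well. EGLN3 spans positions 33924227 to 33951074 (GRCh38.p14). Of 15 genes above the median level that start within 5 Mb beyond it, 14 lay below 0 in C75, with a median log2 fold change of -0.52, and 6 were called lower, where 0.481% of all genes were. The 6 were EAPP (-1.01), the sorting nexin SNX6 (-1.15), the signal recognition particle subunit SRP54 (-1.03), FAM177A1 (-1.24), the NF-kappaB inhibitor NFKBIA (-0.69) and MBIP (-1.05). PAX9, 2.73 Mb away, was at -0.46 and FOXA1, 3.67 Mb away, at 0.11. On the other side, 6 genes within 5 Mb had a median of -0.09. The 29 genes from 5 to 20 Mb had a median of -0.05 and the 78 genes from 20 to 40 Mb, which include the neighbours of HIF1A, one of 0.02. In C66 the same 15 genes had a median of -0.12, with 12 below 0, where 52.2% of all genes were, and 0 called lower. Without any 1 of the 4 arrays, 14 of the 15 genes stayed below 0 in C75, with medians from -0.68 to -0.44. The part of this local shift in the fall of EGLN3 was not tested.

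**Figure D2:**
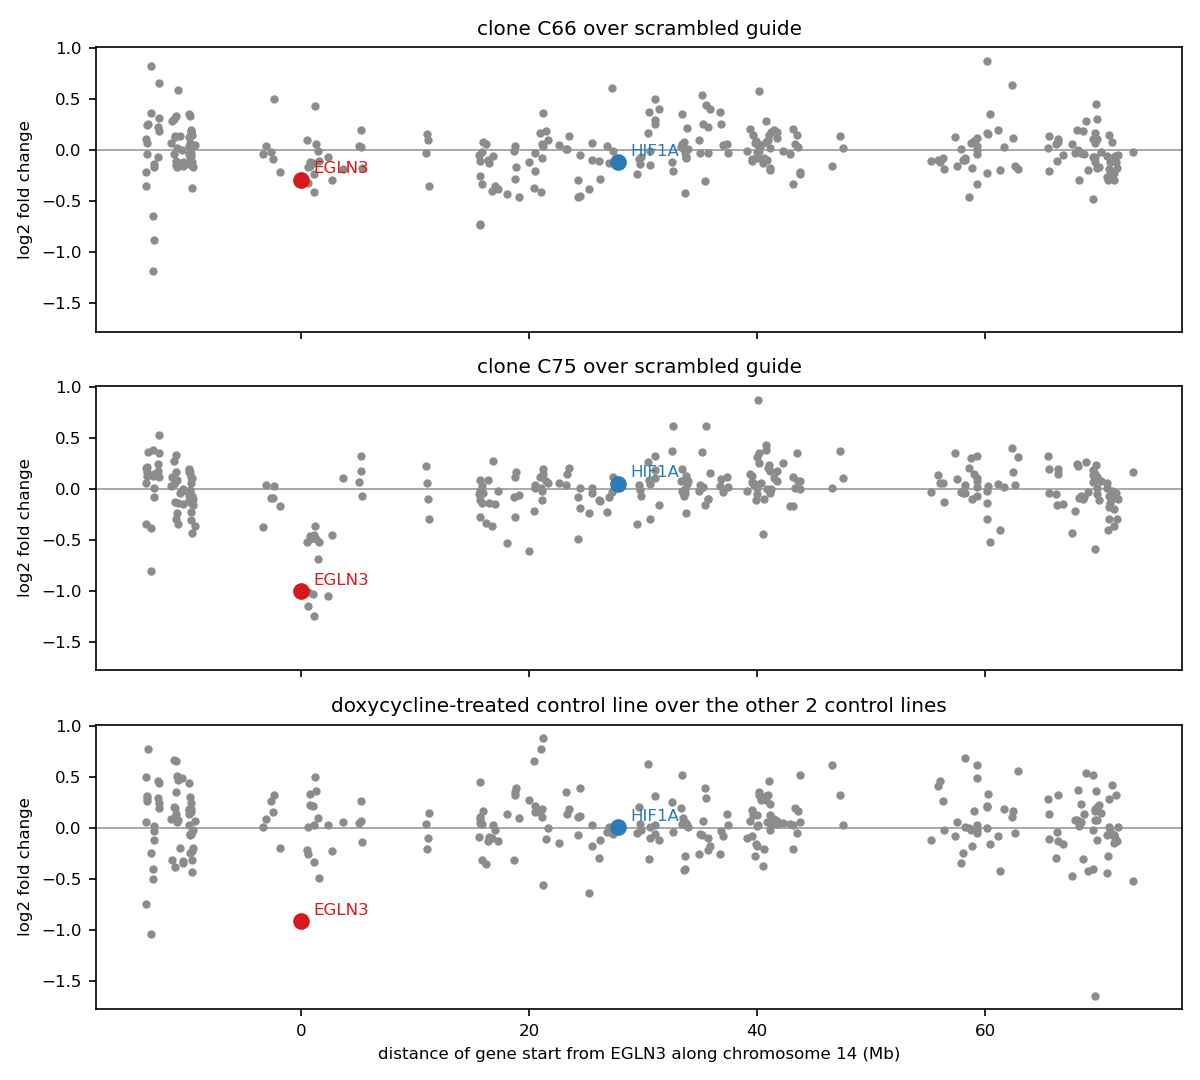
Log2 fold changes of genes above the median level along chromosome 14, by distance of their start from EGLN3 (Mb), in C66, in C75 and in the doxycycline-treated control line against the mean of the other 2 control lines in 3D. In C75, EGLN3 (-1.004) lies with a cluster of lowered genes beside it; in the control lines EGLN3 (-0.92) lies apart from its neighbours, and HIF1A stays near 0 in all 3 panels.

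EGLN3 also differed between the control lines of the 3 experiments. In 3D it read 3.74, 4.04 and 3.94 in the doxycycline-treated control line, 4.95, 4.47 and 4.77 with the control shRNA and 5.02 and 4.83 with the scrambled guide. The first group lay below both others without overlap. The treated line over the mean of the other 2 gave -0.92 (SE 0.13, adjusted p = 4.16e-05), in a comparison added after the levels were seen, and the call held without each of the 8 arrays (adjusted p up to 0.00103). EGLN3 was the 1 of 7 members called there, where 11.7% of all genes were called. Here the 20 nearest genes had a median of 0.04. The listed HIF targets, described further on, were lower in the treated line for 20 of 36 members and higher for none. Of all genes 11.7% were called, and 3.74% were called lower. Line, experiment and doxycycline cannot be told apart in it.

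With induction in 3D, EGLN3 read 4.19, 4.16 and 4.37 against the 3.74, 4.04 and 3.94 of its control, without overlap. The log2 fold change of 0.33 (SE 0.15, interval 0.02 to 0.64) did not pass (adjusted p = 0.256). In 2D the induced line read 3.72, 4.15 and 3.58 against 3.88, 4.27 and 3.86, which is -0.18 on the log2 scale (adjusted p = 0.675). The difference between the cultures was 0.52 (interval 0.08 to 0.95, adjusted p = 0.439), which did not pass. In the induced line, 3D over 2D gave 0.42 (SE 0.15, adjusted p = 0.0571), just outside the threshold. It passed without induced replicate 2 in 2D (0.59, adjusted p = 0.0113), and when only genes above the median level were tested (adjusted p = 0.0369). With the shRNA EGLN3 read 4.71, 4.75 and 4.47 against 4.95, 4.47 and 4.77 (-0.08, interval -0.39 to 0.22).

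EGLN1, the main oxygen-sensing prolyl hydroxylase of most cells, was above its control in all 3 induced arrays in 3D. It read 6.76, 6.38 and 6.32 against 6.24, 6.09 and 6.21. On the log2 scale the change was 0.31 (SE 0.13, interval 0.05 to 0.57, unadjusted p = 0.0215) and did not pass (adjusted p = 0.189). In 2D it was 0.18 (interval -0.08 to 0.44, adjusted p = 0.618). EGLN1 lies on chromosome 1 from 231363756 to 231422287 (GRCh38.p14), and its 20 nearest genes above the median level, which start between 229.6 and 235.1 Mb, were all above 0 with induction in 3D. Their median was 0.26, with 3 called higher, where 2.93% of all genes were. In 2D their median was 0.21, with 4 called higher, where 1.87% were. The value of EGLN1 was thus close to the median of its neighbours in both cultures, and their part in it was not tested. EGLN1 was 0.00 in C66 (interval -0.32 to 0.32), -0.12 in C75 (interval -0.44 to 0.20) and -0.05 with the shRNA (interval -0.31 to 0.22).

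The probe set shared by EGLN2 and RAB4B-EGLN2 varied little. It lay between 3.598 and 3.99 on the 24 arrays, below the median signal of every array. Whether so dim a probe set could show a change was not tested. Its log2 fold changes over the 10 comparisons ran from -0.09 to 0.11, and none passed by limma over all probe sets (smallest unadjusted p = 0.417, smallest adjusted p = 0.678). The shares of all probe sets called in those comparisons were 5.30% and 3.03% with induction in 3D and 2D, 0.0838% with the shRNA, 1.34% in C66, 0.646% in C75 and 0.345% for their mean. They were 2.64% for C66 over C75, 0.222% for the difference of the induction effects, and 8.44% and 15.1% for 3D over 2D in the control and induced lines.

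HIF1AN, the asparaginyl hydroxylase, passed in none of the 10 comparisons by limma (smallest unadjusted p = 0.163). It read 4.18, 3.91 and 4.01 with induction in 3D against 4.08, 3.62 and 4.03, which is 0.12 on the log2 scale (interval -0.17 to 0.41). Its largest log2 fold change was in C75, which read 3.92 and 4.00 against 3.79 and 3.64 with the scrambled guide (0.24, adjusted p = 0.839).

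VHL, the substrate-binding subunit of the ligase that marks HIF-alpha for degradation, was higher in the induced line in 2D without passing. It read 4.35, 4.37 and 4.48 against 4.25, 4.05 and 3.96, with no overlap. On the log2 scale the change was 0.32 (SE 0.15, unadjusted p = 0.0392, adjusted p = 0.331). In 3D it was 0.15 (interval -0.15 to 0.45). In C75 VHL read 3.91 and 4.49 against 3.72 and 3.97, which is 0.36 on the log2 scale (adjusted p = 0.627), and the 2 clone replicates lay further apart than the group means.

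Counted together, none of the 7 members was called with induction in 3D, where 5.70% of all genes were called. Of the 7, 6 lay above 0 (median 0.15, against -0.01 for all genes), while 52.6% of all genes lay below 0. By limma at an unadjusted p under 0.05 there were 2, EGLN1 and EGLN3. With induction in 2D none was called where 3.13% of all genes were, and 1, VHL, had an unadjusted p under 0.05. With the shRNA none was called and 0 had an unadjusted p under 0.05, where 0.0860% of all genes were called. For the difference between induction in 3D and in 2D none was called (1 at an unadjusted p under 0.05, EGLN3), where 0.241% of all genes were. In the control line in 3D over 2D none was called (1 at an unadjusted p under 0.05, EPAS1), where 7.80% of all genes were.

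**Figure D3:**
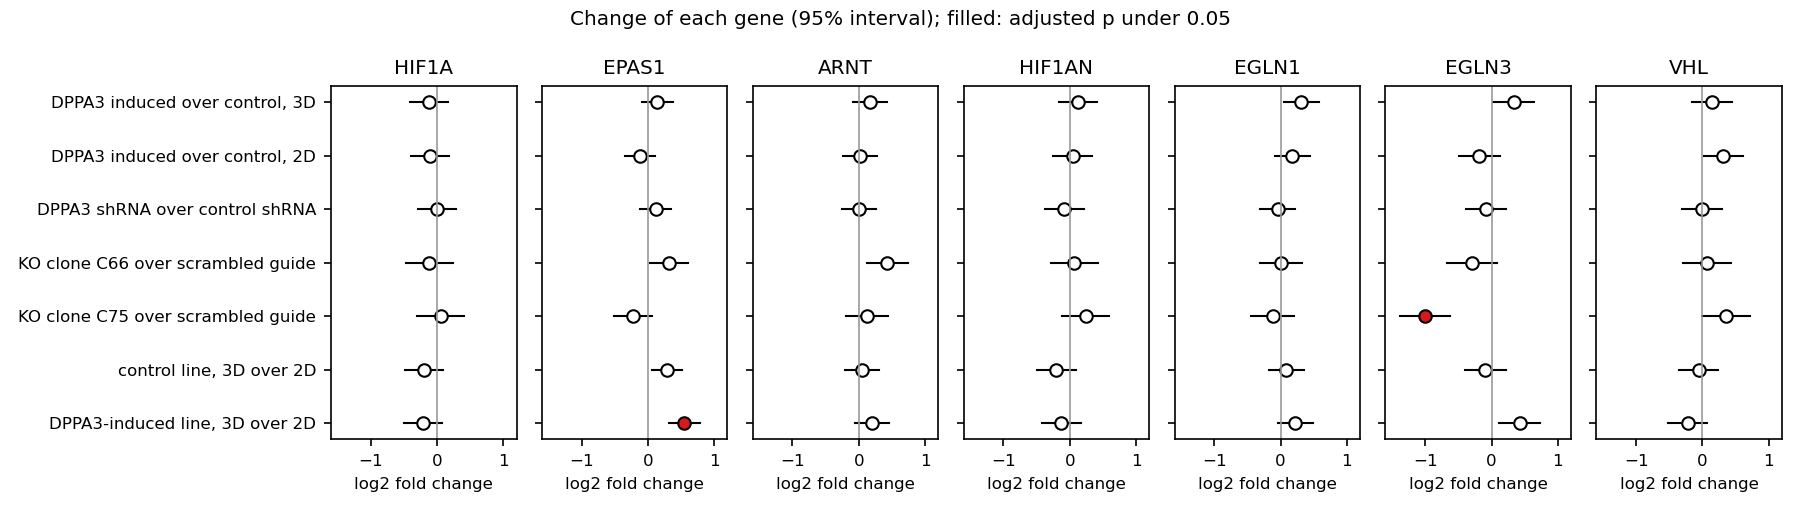
Log2 fold change of each of the 7 genes in 7 comparisons, with 95% intervals from limma; filled points passed an adjusted p under 0.05. The passing points are EGLN3 in C75 (-1.004) and EPAS1 in the induced line in 3D over 2D (0.55), and the 7 intervals of HIF1A all include 0.

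Genes that HIF switches on were set beside its subunits and sensors, as a list of 38 known targets of which 36 were measured and none is a member. The list was chosen with earlier results of these data known. In the control line, 12 of 36 were higher in 3D than in 2D and none was lower (13 of 36 at an unadjusted p under 0.05 by limma), where 4.92% of all genes were higher and 2.88% lower. Their median was 0.15, against -0.06 for the 7 members and -0.02 for all genes. They were led by the carbonic anhydrase CA12 (1.24), the mitophagy receptor BNIP3L (1.06) and the stress gene NDRG1 (1.54). In the induced line 15 of 36 were higher and 1 lower, where 7.55% and 7.35% of all genes were, led by CA12 (1.66), the angiogenic factor VEGFA (1.81) and NDRG1 (2.15). With induction in 3D 9 of 36 were higher and 1 lower, where 2.93% and 2.77% of all genes were, led by the collagen prolyl hydroxylase P4HA1 (1.19), the lactate dehydrogenase LDHA (0.75) and the lysyl hydroxylase PLOD2 (0.74). In 2D P4HA1 (0.93) and LDHA (0.64) were the 2 called, both higher, where 1.87% of all genes were. With the shRNA and in either clone 0 of 36 were called by limma. The shares of all genes called were 0.0860%, 1.43% and 0.619% with the shRNA, in C66 and in C75. At an unadjusted p under 0.05 there were 11, 4 and 3 of the 36 in that order, and the share of all genes at that level was not counted. With the shRNA, 28 of 36 lay below 0 (median -0.12), where 50.2% of all genes did (median -0.0006). These comparisons share arrays, and are not independent of each other.

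**Figure D4:**
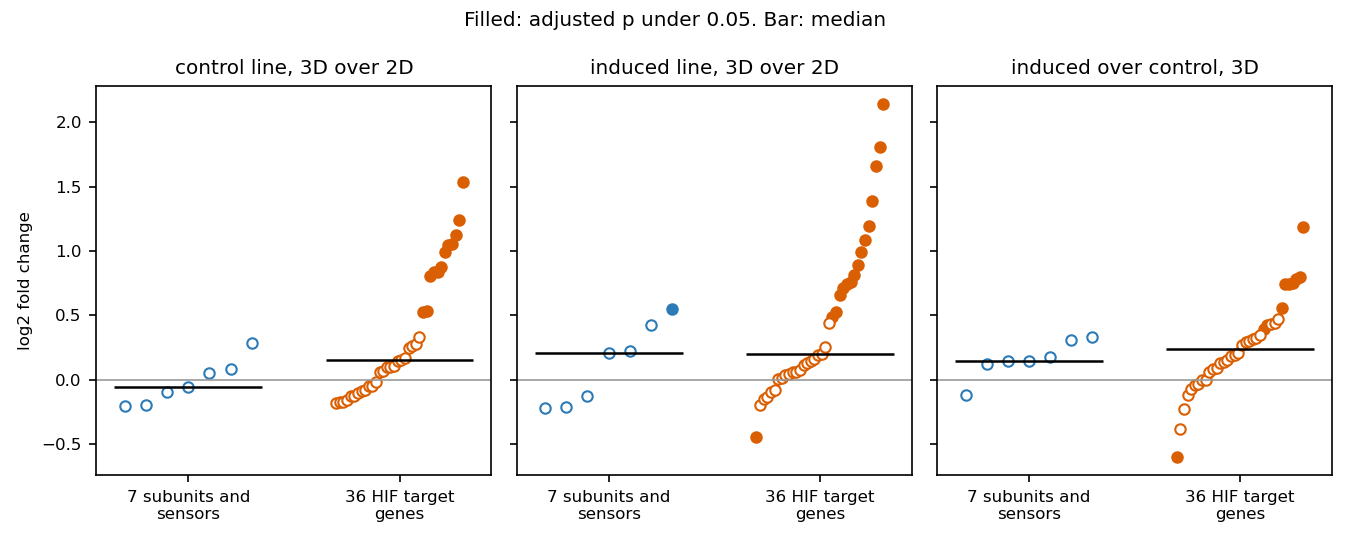
Log2 fold changes of the 7 subunits and sensors and of the 36 measured HIF target genes in the control line in 3D over 2D, the induced line in 3D over 2D, and the induced over the control line in 3D; filled points passed an adjusted p under 0.05, and bars are medians. Called points number 0, 1 and 0 of 7 on the left of each panel and 12, 16 and 10 of 36 on the right.

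Other parts of the VHL ligase were then examined, as a list of 11 genes of which 6 were measured. CUL2, the cullin scaffold that joins VHL to the ubiquitin-transferring enzyme, was called in the most comparisons. It was lower with induction in 3D (-0.77, SE 0.11, adjusted p = 7.14e-05), in 2D (-0.55, adjusted p = 0.00460) and in C75 (-0.93, adjusted p = 0.000464), and not in C66 (-0.11). In 2D the call ended without induced replicate 3 (adjusted p = 0.0843). The difference C66 over C75 was 0.82 (adjusted p = 0.000536). In the induced line in 3D over 2D CUL2 was lower (-0.39, adjusted p = 0.0198) and the elongin ELOB higher (0.34, adjusted p = 0.0352), and both lost the call on leaving out any of 4 of the 6 arrays in turn (adjusted p up to 0.144 and 0.318). COPS5, a subunit of the signalosome that removes NEDD8 from cullins, was lower in the control line in 3D over 2D (-0.38, adjusted p = 0.0396), a call lost on leaving out any of 4 of the 6 arrays in turn (adjusted p up to 0.130). The 20 nearest genes of CUL2 on chromosome 10 had a median of -0.48 with induction in 3D, with 12 called lower, where 2.77% of all genes were. They had a median of -0.43 in 2D with 6 called lower and of -0.46 in C75 with 7, where 1.26% and 0.481% of all genes were. In C66 their median was 0.02. Their part in the change of CUL2 was not tested.

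Among partners and paralogs of ARNT, 11 of 12 listed genes were measured. NPAS2, a relative of CLOCK that pairs with BMAL1, was higher with induction in 3D (0.39, adjusted p = 0.0263), a call lost without replicate 1 or 3 of either line (adjusted p up to 0.0960). The aryl hydrocarbon receptor AHR, which competes for ARNT, was higher with induction in 2D (0.42, adjusted p = 0.0128), a call lost without induced replicate 1 or 3 or control replicate 1 (adjusted p up to 0.107). In 3D over 2D, NPAS2 was higher in the control line (0.44, adjusted p = 0.00947) and in the induced line (0.54, adjusted p = 0.000645), and BMAL2 was lower in both (-0.55 and -0.57, adjusted p = 0.00285 and 0.000803). CLOCK was lower in the induced line (-0.62, adjusted p = 0.00161) and in the control line (-0.43, adjusted p = 0.0444), where the call was lost without 5 of the 6 single arrays (adjusted p up to 0.205; it held without 2D replicate 3). In all, 1 of 11 was called with induction in 3D and 1 in 2D, where 5.70% and 3.13% of all genes were. In 3D over 2D, 3 of 11 were called in the control line and 4 in the induced line, where 7.80% and 14.9% of all genes were.

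Of 15 listed HIF coactivators and corepressors 14 were measured. RUVBL1, an ATPase of chromatin complexes, was lower with induction in 3D (-0.50, adjusted p = 0.00763; 0.0636 without induced replicate 3) and in 3D over 2D in both the control line (-0.50) and the induced line (-0.91, adjusted p = 5.44e-06). ING4, a chromatin reader reported to restrain HIF, was higher in 3D over 2D in the control line (0.84, adjusted p = 9.69e-05). NCOA2 was higher there too (0.41, adjusted p = 0.0148), a call lost without 3D replicate 1 or 2 or 2D replicate 2 (adjusted p up to 0.0987). TRIM28 was lower in C66 than in C75 (-0.58, adjusted p = 0.00870), a call lost without either C66 replicate or C75 replicate 2 (adjusted p up to 0.254). The coactivators EP300 and CREBBP and the antagonist CITED2 were called in no comparison of the design. Of the 14, 1 was called lower with induction in 3D, where 2.77% of all genes were. In 3D over 2D, 2 were higher and 1 lower in the control line, where 4.92% and 2.88% of all genes were. In the induced line 1 was lower, where 7.35% were. For C66 over C75 1 was called, where 2.90% of all genes were.

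Of 24 other regulators of HIF-alpha or hydroxylase stability, 22 were measured. In the control line none was higher and 3 were lower in 3D over 2D (7 at an unadjusted p under 0.05 by limma), where 4.92% and 2.88% of all genes were. In the induced line 1 was higher and 6 lower, where 7.55% and 7.35% of all genes were. The HSP90 chaperones, which hold HIF-alpha in a stable fold, were lower in the induced line (HSP90AB1 -0.64, adjusted p = 0.000806; HSP90AA1 -0.46, adjusted p = 0.00352). In the control line they were at -0.45 (adjusted p = 0.0282) and -0.38 (adjusted p = 0.0300), calls lost without 3 and 5 of the 6 single arrays (adjusted p up to 0.150 and 0.0853). PTGES3, the HSP90 cochaperone p23, was lower in the control line (-0.57, adjusted p = 0.00153) and in the induced line (-0.45, adjusted p = 0.00474). OS9 was higher in the induced line (0.50, adjusted p = 0.00286). With induction in 3D only LAMP2, a lysosomal receptor, was called (0.35, adjusted p = 0.0443), and not without induced replicate 2 or 3 or control replicate 1 or 2 (adjusted p up to 0.259). Of 10 measured genes of translational control by mTORC1 and iron, 0 were called with induction in either culture (1 each at an unadjusted p under 0.05 by limma). The shares of all genes called there were 5.70% in 3D and 3.13% in 2D, so a list of 10 could well hold none. In 3D over 2D the mTORC1 inhibitors DDIT4 (0.99 and 1.39), which is also on the HIF target list, and TSC2 (0.45 and 0.44) were higher in the control and induced lines, where TSC2 lost the call without 4 and 2 of the 6 single arrays (adjusted p up to 0.117 and 0.0837).

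The genes whose pattern over the 9 group means was most like a member's were found among genes above the median level. For HIF1A they were MIR320A (r = 0.952), USP12 (r = 0.95) and PPHLN1 (r = 0.948), over a range of group means of only 0.32 in HIF1A. For EPAS1 they were SLC10A5 (r = 0.986), WDR13 (r = 0.981) and ZSWIM8 (r = 0.976). For EGLN3 they were FYCO1 (r = 0.954), CCNDBP1 (r = 0.945) and ITM2B (r = 0.941). These are Pearson correlations over 9 points that share arrays and experiments, chosen as the highest among all genes above that level, and describe likeness only.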

How the data were processed

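Total RNA was labelled with biotin for Affymetrix arrays, per the labels. Per the submitters' processing notes, the authors used RMA and Partek 6.6, and the values they deposited are log2 signals. RMA equalises arrays by quantiles, so a shift of all genes would not be seen. The sources used here name no genome build for the probes. Of 20276 probe sets, 18062 carried 1 symbol (through the annotation table given, updated by gene ID), 1288 several and 926 none, and the last 2 kinds were left out, except the probe set of EGLN2. Where a gene had more than 1 probe set (468 of 17448 genes), the brightest on average stood for it.

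All 24 arrays entered 1 limma fit with 9 group means, run in limma 3.58.1 in R 4.3.3 (15 residual degrees of freedom), with 2-sided moderated tests and Benjamini-Hochberg adjustment over all genes. It was tested on simulated data. The members, gene lists and rules were chosen with earlier results of these data known. Members were always named. From each list the called genes with the 3 smallest p were named in each comparison, and for HIF1A, EPAS1 and EGLN3 the 3 most similar genes. Neighbours are the 10 nearest genes on each side above the median level, in RefSeq order. The distance bins on chromosome 14 and the values of the genes next to EGLN3 and CUL2 were taken up after the neighbours had been seen. The alternatives were median centring, quantile normalization, probe set means, a filter on dim genes, another variance model, fewer arrays, array weights, a replicate block and leaving out each array. Same-numbered replicates did not deviate together (correlations from -0.21 to 0.17), so they were not treated as pairs.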

Additional observations from a re-analysis of the deposited data

Results flagged for a closer look

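The effects of the 2 knockout clones, which share their control, differed by limma for 2 members. EPAS1 was higher in C66 than in C75 by 0.54 log2 and EGLN3 by 0.72, and both calls were lost without 3 of the 4 single arrays. The effects differed for 5 listed genes as well, in a comparison where 2.90% of all genes were called. They were 1 of 6 measured genes of the VHL ligase, 1 of 11 of 2-oxoglutarate metabolism and 1 of 14 coactivators and corepressors. Of 25 other oxygen-dependent dioxygenases 1 was higher and 1 lower, and the remaining lists had none. C66 over C75 was 0.82 for the cullin CUL2 and 0.81 for the histone demethylase KDM6A. It was -0.94 for the isocitrate dehydrogenase subunit IDH3A, -0.58 for the corepressor TRIM28 and -0.44 for the ribosomal oxygenase RIOX2. CUL2 and IDH3A passed without each single array. For C66 over C75 the 20 nearest genes of CUL2 had a median of 0.45, with 10 called higher. The 20 nearest of EGLN3 had a median of 0.36, with 6 called higher, where 1.98% of all genes were. Their part in the differences of CUL2 and EGLN3 was not tested. KDM6A lost the call without C66 replicate 1 (adjusted p = 0.0515), RIOX2 without each of the 4 arrays (adjusted p up to 0.433) and TRIM28 without either C66 replicate or C75 replicate 2 (adjusted p up to 0.254).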

How the results depend on the processing

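Over the 10 comparisons of the design, 960 values of the 7 members were recomputed. The call was the same in 945, was lost in 10, appeared in 5 and reversed in 0. HIF1A, ARNT, HIF1AN, EGLN1 and VHL were called in none of them. The number of members called in C75 was 0 to 1 without single arrays (1 as reported), in C66 over C75 0 to 1 (2 as reported) and in the induced line in 3D over 2D 1 to 2 (1 as reported). With the variance from the arrays of the comparison alone it was 1 for the mean of the clones (0 as reported) and 1 for C66 over C75, and with array weights 1 for the mean of the clones. With the replicate block it was 1 for C66 over C75 (EPAS1 adjusted p = 0.0509) and 2 for the induced line in 3D over 2D (EGLN3 adjusted p = 0.0315), and the block changed no other member's call. For the treated against the other control lines, quantile normalization gave 3 (1 as reported). Named list genes that lost a call in 1 to 4 of the 8 settings that kept every array were NPAS2 and LAMP2 (induction in 3D), AHR, IDH1 and CUL2 (induction in 2D), CLOCK, BMAL2, COPS5, NCOA2, HSP90AA1, HSP90AB1 and TSC2 (control line in 3D over 2D), CUL2 and ELOB (induced line), TRIM28 and RIOX2 (C66 over C75) and IDH3A (C66). HIF1AN and VHL fall below the median level, so the filter on dim genes gave no count of members.

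Counts over all genes moved by more than 1.5 times in these cases. With the comparison's arrays alone, 995 became 468 and 546 became 314 for induction in 3D and 2D, 56 became 104 for the mean of the clones, 42 became 7 for the difference of effects and 1361 became 562 for the control line. With array weights 15 became 26 with the shRNA, 250 became 546 in C66, 108 became 256 in C75 and 56 became 248 for their mean. Without single arrays the moved counts were 663 for induction in 3D, 8 and 9 with the shRNA, 89 to 120 in C66, 38 to 67 in C75, 5 to 34 for their mean, 259 to 270 for C66 over C75 (506 as reported), 11 to 70 for the difference of effects, and 875 and 905 for the control line. With 2 or 3 arrays a group, small changes of a member could not be detected, and the interval does not mark the limit. A change whose interval lay wholly on the positive side could still miss the threshold after adjustment over all genes. ARNT in C66 had a log2 fold change of 0.43 (interval 0.12 to 0.75) and was not called by limma (adjusted p = 0.234).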

Other observations

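Other enzymes that use oxygen and 2-oxoglutarate, the chemistry of the EGLN hydroxylases, were compared between 3D and 2D. Of 25 measured, 5 lay below 0 in the control line and 6 in the induced line, where 53.7% and 56.0% of all genes did. By the test, 6 were higher and 0 lower in the control line (median 0.20), where 4.92% and 2.88% of all genes were. In the induced line 9 were higher and 1 lower (median 0.19), where 7.55% and 7.35% of all genes were. Of those higher, P4HA1 and KDM3A in both lines and PLOD2 and P4HA2 in the induced line are also on the HIF target list. P4HA1 (0.83 and 1.09) and the histone demethylase KDM3A (0.83 and 0.99), both known HIF targets, led the list in both lines. The demethylase KDM4A was higher in the control line (0.57, adjusted p = 0.00381) and in the induced line (0.53, adjusted p = 0.00283). JMJD6 was lower in the induced line (-0.82, adjusted p = 0.000157). With induction in 3D P4HA1 (1.19) and PLOD2 (0.74), both on the HIF target list, were called higher, where 2.93% of all genes were. In C66 KDM6A was called (0.71, adjusted p = 0.00521), where 1.43% of all genes were. That call was lost without scrambled guide replicate 2 or C66 replicate 1 (adjusted p up to 0.211).

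Of 11 measured genes that make or use 2-oxoglutarate, succinate and fumarate, SDHA, the catalytic subunit of succinate dehydrogenase, was lower with induction in 3D (-0.97, adjusted p = 2.14e-05) and in 2D (-0.63, adjusted p = 0.00422). SDHA has near-identical pseudogene copies, so its signal may be shared with them. IDH1 was higher with induction in 2D (0.35, adjusted p = 0.0206), a call lost without 5 of the 6 single arrays (adjusted p up to 0.173). IDH3A was lower in 3D over 2D in the control line (-0.60, adjusted p = 0.00153) and in the induced line (-0.51, adjusted p = 0.00256), where IDH3B was lower (-0.54) and D2HGDH higher (0.45). D2HGDH lost the call without induced replicate 1 in 3D or replicate 3 in 2D (adjusted p up to 0.0882). In C66 IDH3A was lower (-0.60, adjusted p = 0.0251), a call lost without each of the 4 single arrays (adjusted p up to 0.296). In C75 0 of the 11 were called by limma, where 0.619% of all genes were. At an unadjusted p under 0.05 there were 6, and the share of all genes at that level was not counted. Of the 11, 1 lay below 0 (median 0.24), where 50.4% of all genes did (median -0.002).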
